A study of Mus musculus with 4 samples.

Results

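CD8 T cells of mouse mammary tumours that had received control plasmid were compared by the size of the clone they belonged to. The cells were those of the control library that the authors called CD8 T cells and for which they had recorded a T cell receptor. A cell counted as expanded when the authors put its clone above 10 cells and as small when they put it below 10. This gave 179 expanded and 271 small cells, together 450 of the 649 control cells called CD8 T cells, of 4232 control cells and of 17211 cells in both expression tables. Recounting each clone from its receptor label returned the same 179 and 271 cells.

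A T cell keeps the receptor it assembled in the thymus, and all its daughters carry it, so cells with the same receptor chains are read as one clone. In tumours a clone grows large when its receptor is stimulated again and again. CD8 T cells under such stimulation are known to switch on inhibitory receptors and the factor TOX, and to lose TCF1, the factor encoded by Tcf7 that marks naive, memory and stem-like cells. Cells that have just arrived from the blood carry genes of circulation such as S1pr1, Klf2 and Ly6c2, while CD103, encoded by Itgae, and CD69 hold cells in tissue.

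The labels give live CD45-positive cells sorted from tumours after a plasmid was injected into the tumour and the tissue electroporated. The control plasmid and the plasmid for interleukin 12 (IL-12) each had 1 pool of 3 mice, and from each pool came 1 expression library, read at the 5′ end of transcripts, and 1 receptor library. The growth protocol describes mice in which HER2 was switched on in the mammary tissue at 1 month of age, whereas the title names triple-negative tumours and the library names the 4T1 line, so the tumours are named here only by organ. The receptor table calls the control library Isotype, a word absent from the labels, and its group column reads IL12 for every cell, so the library column was used. Both groups of cells come from the same library, which removes any difference in treatment or preparation between them. Which mouse a clone came from is not recorded in the files, so a difference between clones and a difference between mice cannot be told apart. Cells and clones are not replicates, so no test was made. The intervals printed are exact 95% intervals for counted molecules or cells and cover counting error only.

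The expanded group held 6 clonotypes, numbered as in the deposited table. Clonotype 1 had 90 CD8 cells, clonotype 2 had 36, clonotype 5 had 16, clonotype 3 had 15, clonotype 4 had 12 and clonotype 6 had 10. Over all cell classes clonotype 6 counted 11 cells, the smallest size above the threshold, and clonotype 7 counted 9, the largest below it. The 6 clonotypes were not 6 separate receptors, because clonotype 2 carried the alpha chain of clonotype 1 without a beta chain and clonotype 5 carried its beta chain without an alpha chain. Clonotypes 4 and 6 shared a chain in the same way. Joined by shared chains they formed 3 receptor families: family 1 (clonotypes 1, 2 and 5) with 142 cells or 79.3% of the expanded group, family 2 (clonotype 3) with 15 cells, and family 3 (clonotypes 4 and 6) with 22 cells. A value for the expanded group is therefore mostly a value for 1 receptor.

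**Figure D1:**
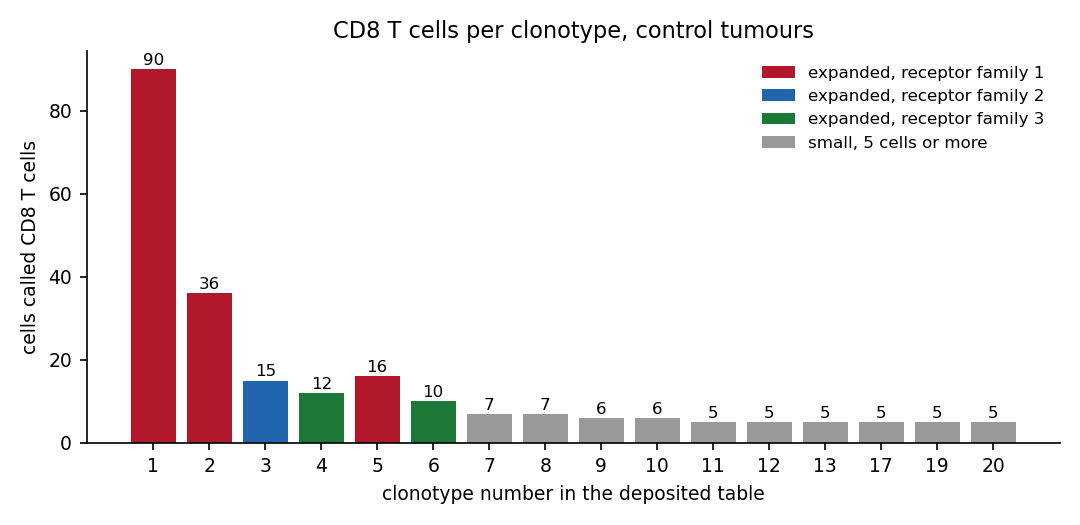
CD8 T cells (vertical axis) in each of the 6 expanded clonotypes, coloured by receptor family, and in the 10 small clonotypes with at least 5 CD8 cells (grey). Clonotype 1 alone holds 90 cells, and the largest small clonotypes hold 7.

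The small group held 173 clonotypes, of which 136 were seen in 1 cell and 37 in more, and 1 small cell had no clonotype recorded with its expression. The 10 small clonotypes with 5 to 7 CD8 cells serve below as the per-clone comparison, a choice made after the data were seen. Of the small cells 19 shared a chain with an expanded clonotype. Among these, 11 cells of 2 clonotypes (numbers 10 and 17) paired the alpha chain of family 1 with another beta chain. The same alpha chain was recorded in 13 cells of the IL-12 library, while 0 of its 3592 cells with a chain carried a beta chain of an expanded control clonotype. Receptors were complete (1 alpha and 1 beta chain) in 117 expanded and 149 small cells. More than 1 chain of a kind was recorded in 16 small cells and in 0 expanded cells. No doublet caller was run.

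The class label was checked against the coreceptors. A Cd8a or Cd8b1 molecule without any Cd4 molecule was counted in 94.4% of expanded cells (169 of 179, interval 89.97 to 97.3%) and in 77.5% of small cells (210 of 271, interval 72.0 to 82.3%). Small clones also held 35 cells (12.9%, interval 9.16 to 17.5%) with Cd4 and no Cd8 transcript. Among expanded cells there were 0 of 179, which allows a share of up to 1.68% at 3 counts of the total and 2.04% as the exact upper bound. The label CD8 T cell thus held for nearly all expanded cells and for fewer of the small ones. Values restricted to cells with Cd8a or Cd8b1 and no Cd4 (169 expanded and 210 small, called Cd4-free below) are given beside many of the main results. Of the coreceptors and receptor genes, Cd8a stood at 804 against 757 CPM (UMIs per 1000000 UMIs of the group), Cd3e at 977 against 874 CPM and Trac at 251 against 265 CPM.

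Depth was alike in both groups. Unique molecular identifiers (UMIs), which count captured transcripts, summed to 1092802 in expanded and 1824083 in small cells, with medians of 5852 and 6334 per cell and of 1669 and 1775 genes. The authors' cluster 8 held 93.9% of expanded and 88.9% of small cells, and their cluster 12 held 6.15% and 7.75%. Transcripts of other cells were present in both groups. The 8 neutrophil markers summed to 4954 CPM in expanded and 6847 CPM in small cells, with ranges of 1034 to 11337 CPM over the 6 expanded and 824 to 36760 CPM over the 10 small clonotypes. Macrophage markers summed to 431 and 308 CPM, natural killer (NK) cell markers to 157 and 109 CPM, mast cell markers to 75.0 and 47.7 CPM, dendritic cell markers to 75.95 and 91.0 CPM, B cell markers to 7.32 and 15.9 CPM and haemoglobin genes to 15.6 and 108 CPM. Of the defining markers Klrb1c, Cpa3, Flt3, Clec9a, Siglech and Ms4a1 were at 0 in expanded cells, and 2 NK, 2 mast and 3 dendritic cell markers were at 0 in small cells. Klre1 of the NK list stood at 58.6 against 38.4 CPM and Kit of the mast cell list at 67.7 against 45.0 CPM. Gamma-delta receptor genes are not among the table's genes. The part of these transcripts in the results was not tested, but values without the authors' clusters 11 and 12 are given below where they differ. The neutrophil gene S100a8 had a log2 ratio of -0.57 with these clusters and of 0.53 without them. Of the 450 barcodes, 10 also occur in the IL-12 table.

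Levels below are UMIs summed over the cells of a group or clonotype and scaled to their total (CPM), and log2 ratios are expanded over small with 1 CPM added to both. Genes were taken as measured when both groups together held 50 UMIs or more and 10% or more of the cells in at least one group had a UMI. Of 5059 measured genes 315 (6.23%) were at least 1.5-fold higher and 260 (5.14%) at least 1.5-fold lower in expanded clones, with a median log2 ratio of 0.01. Most genes thus lay close to equality, and the outliers on the lower side were further out than those on the higher side. Of the 315 higher genes, 251 stayed past the fold in Cd4-free cells, 142 without receptor family 1, and 41 lay past it in each of the 3 families. Of the 260 lower genes these counts were 191, 179 and 75. All 6 expanded clonotypes lay above the pooled small level for 162 measured genes (3.2%) and below it for 268 (5.3%).

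**Figure D2:**
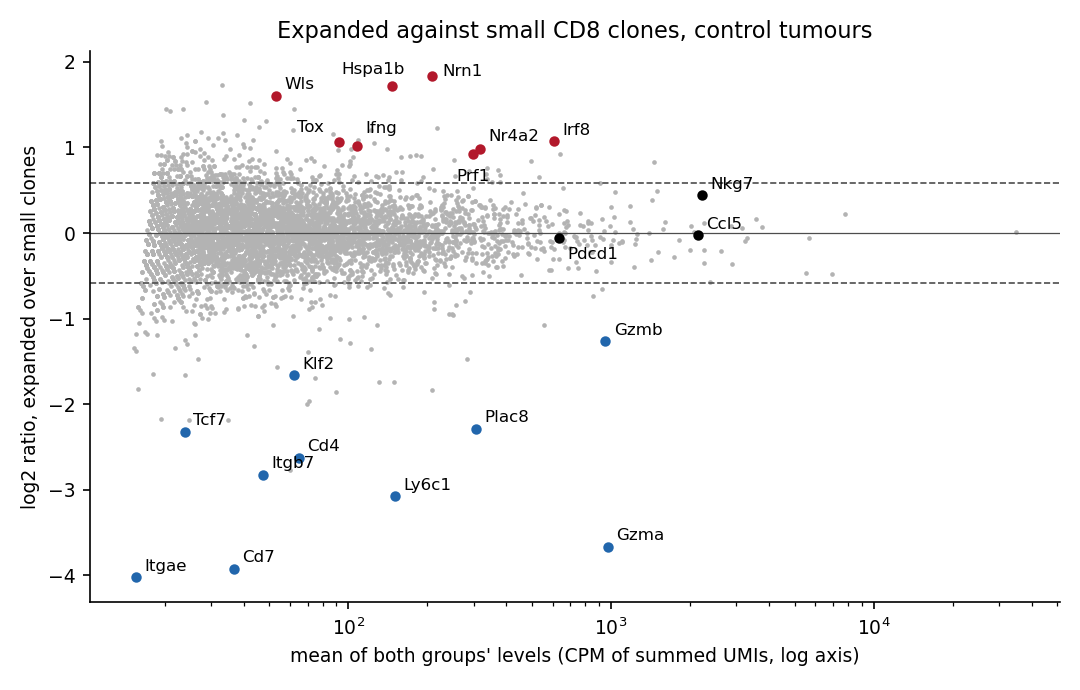
Log2 ratio of expanded over small clones (vertical axis) against the mean level of both groups in CPM (log axis) for the 5059 measured genes. Dashed lines mark a fold of 1.5, and named genes are red where higher, blue where lower and black within the fold. Gzma lies lowest among the abundant genes at -3.67, and Nrn1 lies highest at 1.84.

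The gene with the highest ratio was Nrn1 (chromosome 13, 36725361 to 36735131 on the minus strand of GRCm38), which encodes neuritin, a protein anchored to the cell surface and first known from neurons. It stood at 334 CPM in clonotype 1, 359.95 in clonotype 2, 416 in clonotype 3, 158 in clonotype 4, 452 in clonotype 5 and 72.5 in clonotype 6. The 10 small clonotypes ran from 0 to 230.3 CPM with a median of 45.8. The 3 clonotypes of family 1 and clonotype 3 lay above every one of these small clonotypes, while the clonotypes of family 3 lay among them. The pooled levels were 326 against 90.5 CPM, a 3.60-fold difference (interval 2.99 to 4.36). After each cell was thinned to 1000 UMIs, Nrn1 was detected in 19.6% of expanded and 6.64% of small cells, and in 0.153% of neutrophils, which should lack it. The UMIs were spread over many cells, since the 19 richest expanded cells were needed to reach 50% of them. In Cd4-free cells the log2 ratio was 1.69, and without family 1 it was 1.37.

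Wls, which encodes the carrier that brings Wnt proteins to the cell surface, was higher in 6 of 6 expanded clonotypes than in the pooled small group. Its levels in clonotypes 1 to 6 were 73.9, 75.0, 117, 99.0, 90.5 and 54.4 CPM. The small clonotypes had a median of 0 CPM, although the highest of them, clonotype 7, reached 186 CPM. The pooled ratio was 3.13-fold (interval 2.17 to 4.55), and the log2 ratio without family 1 was 1.86. At equal depth 6.70% of expanded and 2.21% of small cells held a Wls UMI, against 0.957% of neutrophils. Adssl1, an enzyme of adenine nucleotide synthesis, was also above the small level in 6 of 6 clonotypes at 43.0 against 14.2 CPM. Ptch1, a receptor of the hedgehog pathway, stood between 45.2 and 55.9 CPM in clonotypes 1 to 5 and at 0 in clonotype 6, against 14.8 CPM in small cells.

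Several other genes at the top of the ranking depended on a few cells or on receptor family 1. Hspa1b, an inducible heat shock chaperone with a near-identical copy in Hspa1a, had a log2 ratio of 1.71, but 2 cells held 50% of its UMIs in each group. The cytokine gene Tnf stood at 63.1 against 21.4 CPM (log2 ratio 1.52). A single expanded cell held over 50% of its UMIs, and without clusters 11 and 12 the log2 ratio was 0.37. At equal depth 3.91% of expanded and 2.58% of small cells held a Tnf UMI, less than the 10.2% of neutrophils. Sipa1l2 and Saa3, with log2 ratios of 1.45 and 1.32, went to -0.01 and -0.46 without family 1. Without clonotype 1 the log2 ratio of Perp, a gene of cell death and adhesion, was 0.50 instead of 1.37, and that of Mettl7a1 0.91 instead of 1.45. Ttn had 0 UMIs in family 3, and its log2 ratio of 1.42 was 0.12 without family 1. Klrh1, a lectin-like receptor gene of the NK complex, reached 145 and 160.1 CPM in clonotypes 2 and 3 and 9.90 CPM in clonotype 4, against 32.9 CPM in small cells. Its UMIs were spread over 23.5% of expanded cells, and its log2 ratio was 1.85 in Cd4-free cells.

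Over all cells at full depth the inhibitory receptors and other genes tied to T cell exhaustion had the highest median log2 ratio of the 20 lists. Of all 7102 genes with at least 20 UMIs 9.35% were higher and 8.86% lower, and in Cd4-free cells 9.44% and 8.25%. These shares apply to every list count below. Of 17 members with as many UMIs 7 were at least 1.5-fold higher, 0 were lower and 10 lay within the fold. Over the 15 members that passed the filter, the log2 ratio had a median of 0.48. The 7 were Lag3, Cd200, Tox, Nr4a2, Nr4a3, Eomes and Rgs16. In Cd4-free cells 4 of them (Cd200, Tox, Nr4a2 and Rgs16) were past the fold, where 9.44% of all genes were higher, and the median was 0.44, beside 0.38 for the regulatory and helper list. After thinning to 1000 UMIs the median was 0.04 over the 9 members that passed the filter and 0.40 over the 15 above. At full depth the list summed to 4147 against 3039 CPM. It ran from 2647 to 6041 CPM over the expanded clonotypes and from 2657 to 4211 CPM over the 10 small ones, so these overlapped.

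Tox, the factor that sustains the exhausted state, stood at 129.8 CPM in clonotype 1, 115 in clonotype 2, 181 in clonotype 3, 79.2 in clonotype 4, 136 in clonotype 5 and 72.5 in clonotype 6. All 6 exceeded the pooled small level of 59.2 CPM, but they overlapped the 10 small clonotypes, which ran from 0 to 202 CPM with a median of 47.1. The ratio was 2.1-fold (interval 1.62 to 2.73), and its log2 value was 1.09 in Cd4-free cells and 0.96 without family 1. Nr4a2, an orphan nuclear receptor induced by receptor signals, was at 423 against 214 CPM. It was above the pooled small level in 6 of 6 clonotypes, which ran from 287 to 758 CPM. The small clonotypes ran from 79.3 to 630 CPM of Nr4a2 with a median of 264. Thinned to equal depth Nr4a2 was detected in 35.2% of expanded and 13.7% of small cells, against 1.07% of neutrophils. Its relative Nr4a3 stood at 424 against 281 CPM, above the small level in 6 of 6 clonotypes, whereas Nr4a1 stood at 32.0 against 40.0 CPM.

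Cd200, an inhibitory surface ligand, was 1.73-fold higher (interval 1.36 to 2.21) and above the small level in 6 of 6 clonotypes, most in clonotype 3 with 245 CPM. Rgs16, a regulator of G protein signals, stood at 637 against 356 CPM and was higher in 5 of 6 clonotypes. The small clonotypes ran from 97.7 to 832 CPM of Rgs16 with a median of 405. The inhibitory receptor gene Lag3 was at 653 against 414 CPM. It varied from 774 CPM in clonotype 1 and 971 in clonotype 3 to 236 CPM in clonotype 6. The small clonotypes ran from 228 to 976 CPM of Lag3 with a median of 572. Without clonotype 1 the log2 ratio of Lag3 was 0.35 instead of 0.66. The other checkpoint receptors were near equality: Pdcd1, which encodes PD-1, stood at 620.4 against 649 CPM, Tigit at 150.1 against 147 CPM and Ctla4 at 402 against 357 CPM. Havcr2, which encodes TIM-3, was at 129 against 103 CPM with clonotypes between 54.4 and 288 CPM.

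Genes of T cell receptor signalling, many of them receptor chains, coreceptors and kinases, were mostly level. Of all genes with at least 20 UMIs 9.35% were higher and 8.86% lower. Among the 25 list members with as many, 3 were higher and 1 lower (Cd4), with a median log2 ratio of 0.00. The 3 were Egr1, an early response factor, Dusp2, a phosphatase that limits MAP kinases, and Nfatc1, a calcium-dependent factor. Egr1 was 1.76-fold and Dusp2 1.69-fold higher, each above the small level in 6 of 6 clonotypes. Neutrophils held an Egr1 UMI in 31.3% of cells at equal depth, against 10.1% of expanded and 5.54% of small cells. The log2 ratio of Egr1 was 0.51, within the fold, without clusters 11 and 12, and -0.27 in the IL-12 library. Dusp2 and Nfatc1 were within the fold without family 1, at 0.55 and 0.26, while Egr1 was past it at 0.74. All 3 stayed past the fold in Cd4-free cells. The kinases Lck and Zap70 stood at 364 against 358 and 163 against 168 CPM. Of 24 immediate early and stress genes 3 were higher (Egr1, Hspa1a and Hspa1b), 0 were lower, and the median log2 ratio was -0.11, with Jun at 105 against 105 CPM.

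The transcription factor gene Irf8 was among the most abundant genes higher in expanded clones. It stood at 774 CPM in clonotype 1, 899.9 in clonotype 2, 1708 in clonotype 3, 614 in clonotype 4, 599.5 in clonotype 5 and 308 in clonotype 6. The small clonotypes ran from 0 to 1102 CPM with a median of 376, so the groups overlapped, and clonotype 6 lay below the pooled small level of 391 CPM. The ratio was 2.11-fold (interval 1.91 to 2.33), with a UMI in 37.4% of expanded, 22.9% of small cells and 1.11% of neutrophils at equal depth. Of the other fate-setting factors, Tbx21, which encodes T-bet, was at 95.2 against 52.6 CPM and higher in 6 of 6 clonotypes. Eomes was at 95.2 against 59.8 CPM but ran from 0 to 267 CPM over the clonotypes, with 3 of 6 above the small level. Ikzf2, which encodes Helios, was 1.38-fold higher, within the fold, and lay above the small level in 6 of 6 clonotypes, between 485 and 640.4 CPM.

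Cytotoxic genes split. Of 14 members with at least 20 UMIs 3 were higher (Prf1, Gzmd and Gzme) and 4 were lower (Gzma, Gzmb, Gzmc and Gzmk). The other 7 lay within the fold, and the median log2 ratio was -0.42. In Cd4-free cells 2 of 14 were higher (Gzmd and Prf1) and 6 lower, with Gzmf and Tnfsf10 added, and the median was -0.58. Prf1, which encodes the pore-forming perforin, was at 391 against 206 CPM (1.90-fold, interval 1.65 to 2.18) and higher in 5 of 6 clonotypes. Its levels ran from 145 CPM in clonotype 6 to 897 CPM in clonotype 3, inside the range of the small clonotypes (28.0 to 1268 CPM). Nkg7, a granule protein gene, was at 2563 against 1882 CPM and higher in 5 of 6.

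Gzma, which encodes the tryptic granzyme A, was the abundant gene with the largest deficit. Its levels were 59.5 CPM in clonotype 1, 440 in clonotype 2, 10.7 in clonotype 3, 317 in clonotype 4 and 0 in clonotypes 5 and 6. The small clonotypes ran from 0 to 4502 CPM with a median of 187. All 6 expanded clonotypes were below the pooled small level of 1799.8 CPM, and so were 9 of the 10 small ones. The exception, clonotype 10, carries the alpha chain of family 1 with another beta chain. In small cells 4 cells held 50% of the 3283 UMIs, and in expanded cells 1 cell held over 50% of the 154. The deficit was 12.8-fold in pooled UMIs (interval 10.9 to 15.1), with a log2 ratio of -4.59 without clonotype 2. At equal depth Gzma was detected in 3.91% of expanded and 12.2% of small cells, against 3.06% of neutrophils. The expanded share is thus near the background.

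Gzmb, which encodes granzyme B, stood at 406 CPM in clonotype 1, 579.9 in clonotype 2, 694 in clonotype 3, 1644 in clonotype 4, 271 in clonotype 5 and 272 in clonotype 6. Clonotype 4 was the exception above the pooled small level of 1347 CPM. The small clonotypes ran from 112 to 5456 CPM with a median of 1462, and the ranges overlapped. The pooled level was 2.41-fold lower in expanded cells (interval 2.20 to 2.64), and the log2 ratio was -1.63 in Cd4-free cells and -0.45, within the fold, without family 1. Gzmb was detected in 26.3% of expanded and 38.0% of small cells at equal depth, against 2.91% of neutrophils. Gzmk and Gzmc were below the small level in 6 of 6 clonotypes, with 26.5 against 80.6 CPM and 27.5 against 112 CPM.

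Granzyme genes sit in clusters, Gzma and Gzmk on chromosome 13 and Gzmb, Gzmc and Gzmd on chromosome 14, and neighbours differed in direction. Gzmd was 2.84-fold higher while Gzmb and Gzmc were lower, but 1 expanded cell held over 50% of its UMIs, and its log2 ratio was -0.13 without family 1. Gzmc to Gzmf are similar in sequence and their separate counts are uncertain. Among cytokines Ifng, which encodes interferon-gamma, was at 145.5 against 71.3 CPM (2.04-fold, interval 1.61 to 2.59). It was higher in 5 of 6 clonotypes, with 256 CPM in clonotype 3 and 33.9 CPM in clonotype 5, and lay within the small clonotypes' range of 0 to 248 CPM except in clonotype 3. At equal depth 13.4% of expanded and 7.01% of small cells held an Ifng UMI, against 0.268% of neutrophils. Ccl5, a chemokine gene of effector cells, was at 2129 against 2167 CPM, and Ccl4 at 237 against 149.7 CPM.

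**Figure D3:**
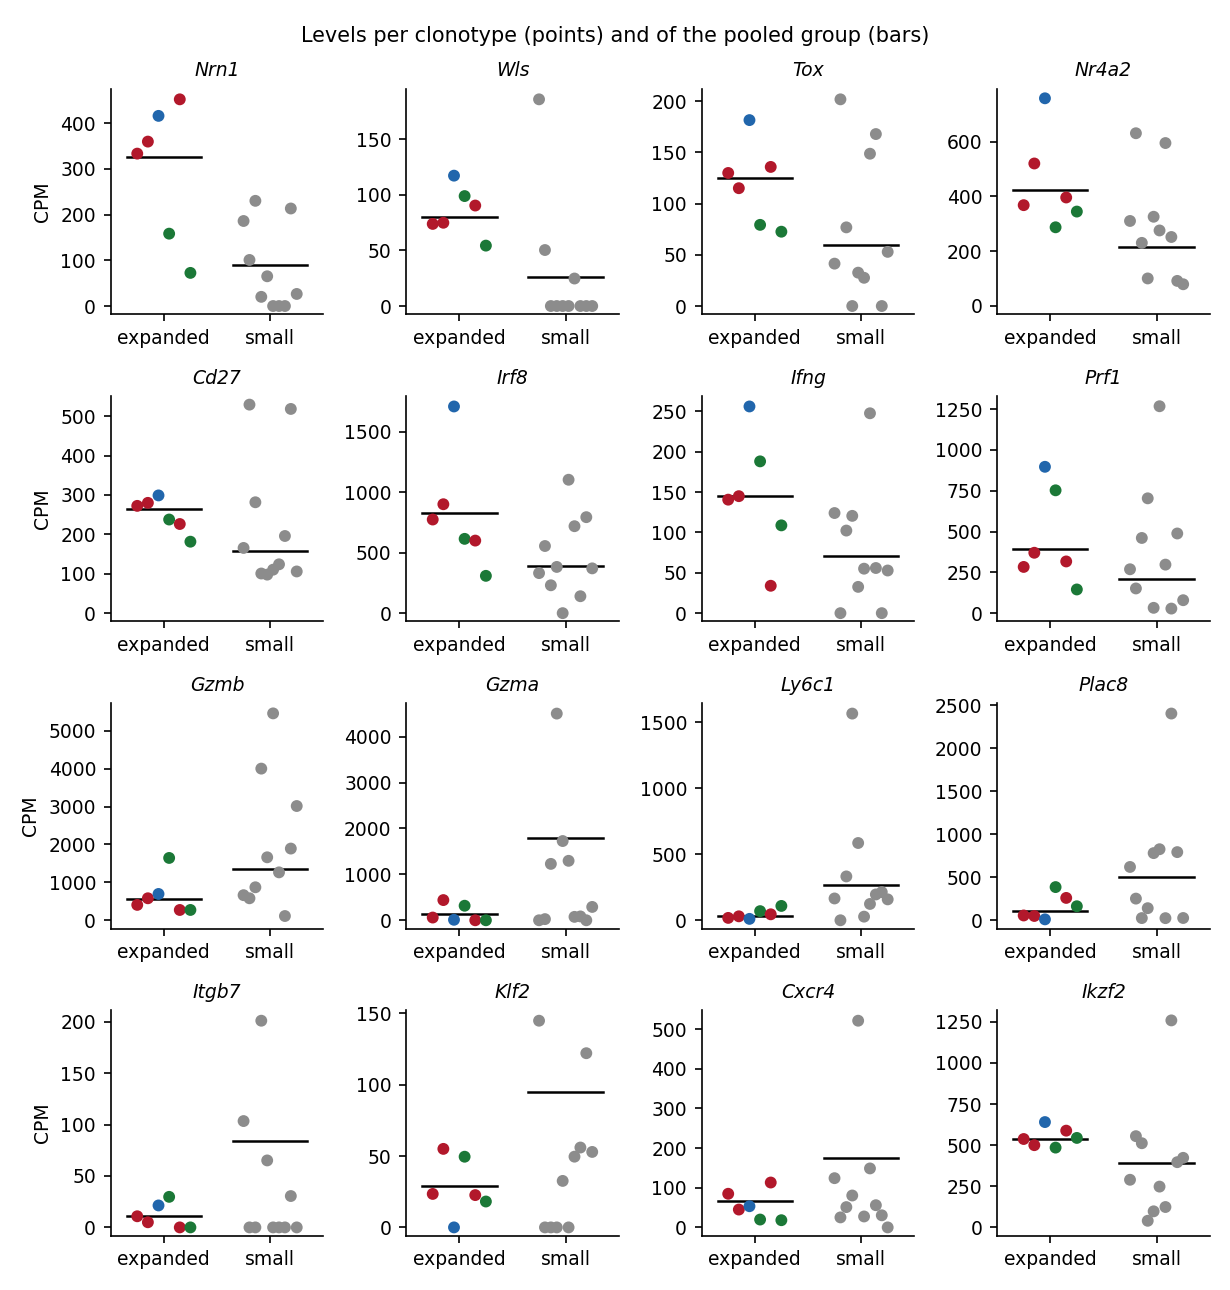
Levels in CPM (vertical axes) of 16 genes in the 6 expanded clonotypes, coloured by receptor family (red family 1, blue family 2, green family 3), and in the 10 small clonotypes with at least 5 cells (grey). Black bars are the pooled groups. For Tox, Nr4a2, Cd27, Wls and Ikzf2 every expanded point lies above the pooled small bar, and for Gzma, Ly6c1, Plac8, Itgb7, Klf2 and Cxcr4 every one lies below it, with overlap between the point clouds in each panel.

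Over all cells at full depth the circulation genes had the lowest median log2 ratio of the 20 lists. Of 11 members with at least 20 UMIs 8 were lower (among them S1pr1, S1pr4, Klf2, Klf3, Ly6c2, Itgb7 and Emb), 1 was higher (Itga4) and 2 lay within the fold. Over the 8 that passed the filter, the log2 ratio had a median of -1.56. In Cd4-free cells 7 of 10 were lower, where 8.25% of all genes were. After thinning to 1000 UMIs 3 members passed the filter (Itga4, Itgb1 and Emb), with a median of 0.20, while the median over the 8 members above was -1.63.

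S1pr1, the receptor by which T cells leave tissue towards blood and lymph, had 0 UMIs in expanded and 82 in small cells. Against a floor of 3 UMIs over the group it was at least 16.4-fold lower. It was found in 22 small cells (8.12%, interval 5.16 to 12.03%) and in 0 of 179 expanded cells. Of the 82 UMIs 13 were in Cd4-free small cells, where 2.38% of cells held one at a level of 8.92 CPM. Of the 10 small clonotypes 9 had no S1pr1 UMI. Klf2, the factor that drives S1pr1, stood at 23.4, 55.0, 0, 49.5, 22.6 and 18.1 CPM in clonotypes 1 to 6. All were below the pooled small level of 94.8 CPM. The 10 small clonotypes ran from 0 to 145 CPM of Klf2, and their median of 41.1 CPM lay inside the expanded range. For Klf3 their median was 0 CPM. Neutrophils also express Klf2, and without clusters 11 and 12 its log2 ratio was -1.84 instead of -1.66.

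Ly6c1 and Ly6c2 lie side by side on chromosome 15 and encode the surface protein Ly6C in near-identical copies, so their separate counts are uncertain. Ly6c1 stood at 18.0, 30.0, 10.7, 69.3, 45.2 and 109 CPM in clonotypes 1 to 6 against 269.7 CPM in the small group. The 10 small clonotypes ran from 0 to 1568 CPM with a median of 181, and 8 of them lay above the highest expanded clonotype. Ly6c1 was 8.67-fold lower in expanded cells (interval 6.12 to 12.7) and detected in 2.79% of expanded and 15.9% of small cells at equal depth, against 2.83% of neutrophils, so the expanded share was at the background. Its log2 ratio was -3.40 in Cd4-free cells and -2.25 without family 1. Plac8, a cysteine-rich protein gene of effector and memory T cells, was at 103 against 508 CPM and below the small level in 6 of 6 clonotypes. Neutrophils carry Plac8 as well, and its log2 ratio without clusters 11 and 12 was -2.50. Emb, a surface glycoprotein gene, was at 150.1 against 417 CPM and below the small level in 6 of 6 clonotypes.

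Integrin chains differed in both directions. Itgae and Itgb7 encode the alpha and beta chain of the CD103 integrin that binds E-cadherin on epithelium. Itgae had 1 UMI in expanded and 55 in small cells, a 33.0-fold lower level with a counting interval from 5.67 to 1325. Of the 10 small clonotypes 9 had no Itgae UMI, and 6 had none of Itgb7 and 6 none of Cd7. Itgb7 stood between 0 and 29.7 CPM in the 6 clonotypes against 83.9 CPM in small cells and had a UMI in 5.59% against 29.9% of cells. Itga4, the alpha chain that pairs with Itgb7 or Itgb1 for homing, was higher at 414 against 256 CPM. Of the 14 residency genes with at least 20 UMIs 6 were lower (Itgae, Itga1, Cd69, Ccr8, Ahr and Xcl1), 1 was higher (Dusp6) and 7 lay within the fold, with a median log2 ratio of -0.13. In Cd4-free cells 2 of 13 were lower (Itgae and Itga1) and 2 higher (Prdm1 and Dusp6), while Ccr8, Cd69 and Xcl1 had log2 ratios of -0.07, -0.32 and -0.41. Cxcr6, a chemokine receptor of resident cells, was at 592 against 519 CPM. Cd7, a surface receptor of T and NK cells, had 4 UMIs in expanded and 127 in small cells, and its log2 ratio was -4.22 in Cd4-free cells. Adgrg5, an adhesion G protein-coupled receptor of lymphocytes, stood between 0 and 19.8 CPM in the 6 expanded clonotypes against 57.6 CPM in small cells. Cpd, which encodes carboxypeptidase D, stood between 0 and 19.8 CPM against 41.1 CPM. Both were below the small level in 6 of 6 clonotypes, but 6 of the 10 small clonotypes had no Cpd either.

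Of 13 naive, memory and stem-like genes 6 were lower, 2 higher (Cd27 and Myb) and 5 within the fold, with a median log2 ratio of -0.30. In Cd4-free cells 3 of 10 were lower (Tcf7 and Satb1 among them) and the same 2 higher, and the list summed to 1106 against 1103 CPM. Tcf7 had 8 UMIs in expanded and 74 in small cells, a 5.54-fold lower level (interval 2.67 to 13.3). Clonotype 2 held 25.0 CPM of it and clonotypes 3, 4 and 5 none, against 40.6 CPM in the small group, whose 10 clonotypes had a median of 0. The log2 ratio of -2.32 was -1.90 in Cd4-free cells and -3.25 without clonotype 2. Slamf6, a surface marker of stem-like cells, had 2 against 23 UMIs, and its log2 ratio was -2.27 over all cells and -0.59 in Cd4-free cells, where 7 UMIs remained. Cd27, the costimulatory receptor that effector cells lose late, went the other way: it was higher in 6 of 6 clonotypes, between 181 and 299 CPM, against 157 CPM (1.68-fold, interval 1.42 to 1.99). Il7r, the interleukin 7 receptor of memory cells, was at 241 against 259 CPM.

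Regulatory and helper T cell genes were lower over all cells and not in Cd4-free cells. Of 14 members with at least 20 UMIs 9 were lower, 1 was higher (Ikzf4) and 4 lay within the fold, with a median log2 ratio of -0.62. Cd4 itself was at 17.4 against 112 CPM, and clonotypes 4 and 6 of family 3 held 14 of the 19 expanded UMIs. Among the small clonotypes clonotype 8 stood apart with 857 CPM of Cd4, while the other 9 had none. Foxp3, the factor of regulatory T cells, and the helper cytokine gene Il13 had 0 UMIs in expanded cells and 26 and 68 in small ones. Il1rl1, the interleukin 33 receptor, and the ligand gene Tnfsf8 had 1 UMI each against 170 and 144. In Cd4-free cells 0 of 9 members were lower and 3 higher (Ikzf4, Tnfrsf4 and Maf), and the list's median log2 ratio was 0.38. Il1rl1 then had 1 UMI in each group, and Tnfrsf4, which encodes OX40, went from a log2 ratio of -0.88 to 0.78. Foxp3 and Il13 kept 2 and 1 UMIs there and were not counted among the 9.

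Of 9 chemokine receptors 5 were lower and 0 higher, and in Cd4-free cells 2 of 6 were lower (Cxcr4 and Ccr2) and 1 higher (Cx3cr1). Cxcr3, the receptor of CXCL9 and CXCL10, had 1 UMI in expanded and 23 in small cells (log2 ratio -2.83, and -2.76 in Cd4-free cells). Cxcr4, the receptor of CXCL12, was at 67.7 against 175 CPM and Ccr2, a receptor of inflammatory chemokines, at 58.6 against 145 CPM. Both were below the pooled small level in 6 of 6 clonotypes. The 10 small clonotypes had medians of 53.6 CPM of Cxcr4, below the pooled expanded level, and 148 CPM of Ccr2. At equal depth 19.5% of neutrophils held a Cxcr4 UMI, against 5.59% of expanded and 14.4% of small cells. Among 23 cytokine receptor genes 5 were lower, 1 was higher (Il10ra, 55.8 against 35.1 CPM) and 17 lay within the fold. Il2rb, the beta chain of the interleukin 2 and 15 receptor, was at 1749 against 1241 CPM, higher in 5 of 6 clonotypes. Il2ra was at 56.7 against 114 CPM over all cells, but its log2 ratio was 0.24 in Cd4-free cells. Of the 10 costimulatory genes Cd27 was higher, and Tnfrsf4, Tnfrsf18, Slamf1 and Cd2 were lower. In Cd4-free cells 2 of the 10 were higher (Tnfrsf4 and Cd27) and 2 lower (Slamf1 and Cd2), with a median log2 ratio of 0.32.

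Proliferation genes were lower in counts, while the authors' phase calls differed little. Of 26 members with at least 20 UMIs 15 were lower, 0 were higher and 11 lay within the fold. The median log2 ratio was -0.32 over the 13 measured ones. In Cd4-free cells 11 of 24 were lower and 0 higher. Mki67, a marker of cycling cells, was at 48.5 against 83.3 CPM, but 2 expanded and 4 small cells held 50% of its UMIs. It was found in 12.8% of expanded and 11.8% of small cells at full depth. Against small clones of 1 cell alone its log2 ratio was 0.42. Clonotype 2 stood apart with 139.98 CPM, and without it the log2 ratio was -1.54 instead of -0.77. The phase calls put 30.2% of expanded and 34.3% of small cells in G1, 32.4% and 32.8% in S, and 37.4% and 32.8% in G2/M, with overlapping intervals.

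Interferon-gamma response and antigen-presentation genes lay mostly within the fold. Type I interferon genes were lower in sum, mostly through Ifi27l2a. Of 22 interferon-gamma response genes 1 was higher (Irf8), 3 were lower (Gbp2, Gbp3 and Wars) and 18 lay within the fold, and of 15 MHC class I genes 0 lay past it. H2-K1 was at 3243 against 3369 CPM and B2m at 2440 against 2818 CPM. Of 18 type I interferon genes 3 were higher, 3 lower and 12 within the fold, with a median log2 ratio of -0.48 over the 9 that passed the filter. The list summed to 1310.4 against 1830.0 CPM (0.716-fold, interval 0.673 to 0.762). The most abundant member past the fold was Ifi27l2a at 358 against 758 CPM, which made up most of the difference in the sum. Clonotypes 4 and 6 of family 3 stood at 881 and 743 CPM of it, and the other 4 at or below 355 CPM. Its log2 ratio was -1.08 over all cells and -0.26, within the fold, without family 1. In Cd4-free cells 3 of 17 type I interferon genes were higher and 5 lower. Of 13 glycolysis genes 1 was higher (Gapdh, with 12 against 10 UMIs and many near-identical copies in the genome), 1 was lower (Hk2) and 11 lay within the fold. Actin and cytoskeleton genes had a median log2 ratio of -0.32 with 3 of 23 past the fold (Tmsb10, Anxa1 and Crip1), and Actb was at 4652 against 6412 CPM.

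NK receptor and innate-like genes, which mark tumour T cells with innate features, were mixed. Of 19 members 2 were higher (Klre1 and Klri2), 5 were lower (Gzma, Klra5, Klra7, Cd7 and Xcl1) and 12 lay within the fold. In Cd4-free cells 2 of 18 were higher (Klri2 and Kit) and 3 lower (Gzma, Klra5 and Cd7). The receptor genes Klrc1, Klrd1 and Klrk1 were at 361 against 314, 361 against 313 and 259 against 203 CPM. The adaptor genes Fcer1g and Tyrobp were at 126 against 178 and 127 against 170.5 CPM. Neutrophils express both adaptors, so their source cannot be told apart in these values. Klra genes are near-identical copies, and their separate counts are uncertain. Klra7 had 3 against 20 UMIs, and the log2 ratio of Klra5 was -0.97 over all cells and -0.03 without family 1. That of Klre1 was 0.60 over all cells and within the fold in Cd4-free cells (0.37) and without family 1 (0.06).

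**Figure D4:**
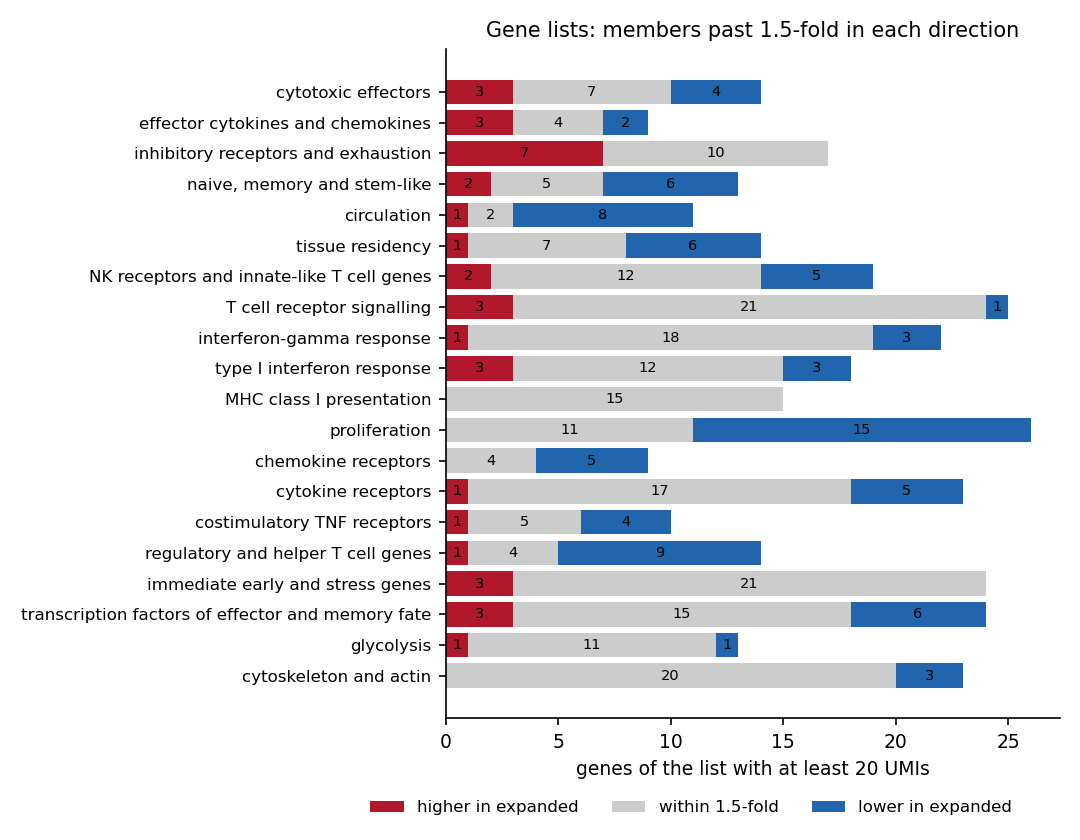
Number of genes with at least 20 UMIs (horizontal axis) in each of 20 gene lists that were at least 1.5-fold higher in expanded clones (red), lower (blue) or within the fold (grey). Exhaustion genes have 7 higher and 0 lower, circulation genes 1 higher and 8 lower, and MHC class I genes 15 within the fold. Of all genes with at least 20 UMIs 9.35% were higher and 8.86% lower.

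No gene list separates the clonotypes cleanly, and few single genes do. Of 5059 measured genes 3 (0.0593%) were higher in every expanded clonotype than in every one of the 10 small clonotypes, and 1 (0.0198%) was lower. The 3, picked after their values were seen, were Foxn3, Pcmtd2 and Ubl7. For Foxn3 the lowest expanded clonotype had 45.2 CPM and the highest small one 32.6 CPM. Ubl7 was at 0 CPM in all 10 small clonotypes, yet its pooled level was higher in the small group (23.6 against 16.5 CPM), so an absence of overlap with clonotypes of 5 to 7 cells was no measure of size for a gene this low.

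The authors' per-cell scores, whose making the sources used here do not give, were compared as differences of means. The exhaustion score was higher by 0.098 in expanded cells (mean 0.063 against -0.035, SD over cells 0.168 and 0.179), and the mean of each of the 6 clonotypes lay above the small mean, from -0.015 in clonotype 6 to 0.092 in clonotype 3. The 10 small clonotypes, from -0.022 to 0.234, also lay above that mean, and the highest of them exceeded every expanded clonotype. The CXCR3 score was lower by 0.102 (-0.058 against 0.044, SD 0.078 and 0.136), with 0 of 6 clonotypes above the small mean and small clonotypes from -0.088 to 0.185. The activation score had means of -0.136 and -0.129. These score differences were smaller than the spread between cells, except that the CXCR3 difference exceeded the SD of expanded cells.

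The same contrast in the IL-12 library is set beside the control values. It took the cells called CD8 T cells with a recorded receptor, 2175 expanded cells of 22 clonotypes and 599 small cells. There 2.38% of 4959 measured genes were at least 1.5-fold higher and 3.79% lower. Of the 230 genes higher in control expanded clones and measured in both libraries, 55 (23.9%) were also higher there, 3 were lower and 172 lay within the fold. Of 220 lower genes 62 (28.2%) were lower there, 2 were higher and 156 lay within the fold. The difference between libraries was not tested, since each treatment had 1 library.

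**Figure D5:**
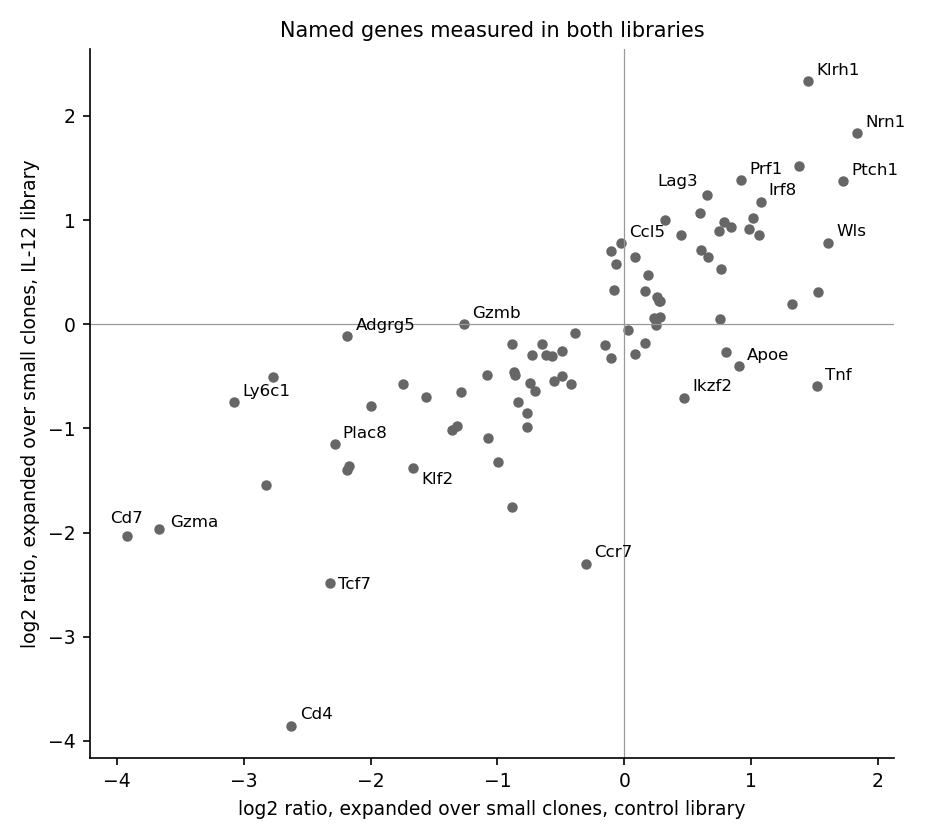
Log2 ratio of expanded over small clones in the IL-12 library (vertical axis) against that in the control library (horizontal axis) for the named genes measured in both. Nrn1, Ptch1 and Klrh1 lie at the upper right and Gzma, Cd7, Tcf7 and Cd4 at the lower left, while Tnf, Apoe and Ikzf2 lie above 0 in the control and below 0 in the IL-12 library.

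Nrn1 had a log2 ratio of 1.84 in both libraries, at 172 against 47.5 CPM in the IL-12 library. Ptch1, Irf8, Prf1 and Ifng had log2 ratios of 1.37, 1.18, 1.39 and 1.02 there, and Tox, Nr4a2, Cd200 and Cd27 of 0.85, 0.91, 0.98 and 0.89. Lag3 was at 1.24 and Pdcd1 at 0.58. On the lower side Cd4, Tcf7, Gzma and Klf2 had -3.85, -2.48, -1.97 and -1.38. No Cd4-free values are given for the IL-12 library. Its small cells held 242 Cd4 and 226 Foxp3 UMIs, against 44 and 6 in its expanded cells. Gzmb was level there, with 1355 against 1356 CPM, where in control it was lower. Ikzf2 had a log2 ratio of -0.70 there against 0.47 in control, with 6 of 6 control clonotypes above the small level. Ly6c1 was at -0.75 against -3.08, and Ccr7, the lymph node homing receptor, at -2.30 against -0.30, where 1 control cell held over 50% of the expanded group's Ccr7 UMIs.

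Of the 92 named genes past the fold, 72 stayed past it when any single clonotype was left out, 76 in Cd4-free cells, 70 without receptor family 1, and 53 under each of these. These counts set no floor of UMIs in the remaining cells. They include Il13, Foxp3, Tnfsf8 and Slamf6, which had 0 against 1, 0 against 2, 1 against 6 and 2 against 5 UMIs in Cd4-free cells. Nrn1, Wls, Ptch1, Tox, Nr4a2, Irf8, Gzma, Ly6c1, Plac8, Klf2 and Cd7 were among those past the fold in Cd4-free cells and without family 1.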

How the data were processed

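The deposited expression tables hold 1 cell per line with log2 values, which back-transformed to whole UMIs per cell with a tolerance of 0.1, except 6 of 4251108; the table's genes hold 72.9% of the UMIs of a total read from the size of 1 UMI. Per the submitters' processing notes, STAR 2.6.1, Partek, Cell Ranger 2.1.0 and the build mm10 were used, with no roles stated. Classes, clusters, phases, clone sizes and per-cell scores are the authors' deposited columns; the sources used here do not give how the scores were made. Another 11 per-cell columns of the receptor table were not used. Gene positions are from GENCODE M21 (GRCm38).

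Cells were joined to the control table by barcode and UMIs were summed over cells (CPM, pseudocount 1). Genes needed 50 UMIs and a UMI in 10% of the cells of a group, and list members 20 UMIs. Past the fold means 1.5-fold. A gene at 0 was set against a floor of 3 UMIs. Shares were also computed after thinning each cell to 1000 UMIs. Of the neutrophils 110 were shallower and left out, and the other 2611 had a median of 2524 UMIs. Depth is given in the opening. The scripts (Python 3.11.15, numpy 2.4.6, pandas 2.3.3, scipy 1.17.1, matplotlib 3.10.9) were tested on simulated data. No doublet caller was run and no test was made, since each treatment has 1 library.

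The cells and gene lists were chosen with earlier results of these data known. Genes named by rule were the 12 with the highest and 12 with the lowest log2 ratio (without genes for ribosomal proteins, mitochondrial transcripts, immunoglobulins and receptor segments), up to 4 per list by size of log2 ratio, and a set of T cell genes; other list members were named after their values were seen. Alternatives changed the pseudocount, the filter, the cells, the weighting, the depth and the clonotypes.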

Additional observations from a re-analysis of the deposited data

Results flagged for a closer look

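Tnf, which encodes the cytokine tumour necrosis factor, had a log2 ratio of expanded over small clones of 1.52 in the control library and of -0.60 in the IL-12 library. It was picked out because all control clonotypes but one lay above the small group while the pooled IL-12 ratio had the opposite sign. The levels were 63.1 against 21.4 CPM in control and 94.4 against 143 CPM in the IL-12 library. A single control cell held over 50% of the expanded group's 69 UMIs, and the control ratio was 0.62 without clonotype 1. The difference between the libraries was not tested, since each treatment had 1 library.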

How the results depend on the processing

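No paired analysis was possible because each treatment has 1 library and both groups of cells come from the same one. Of the 315 higher and 260 lower genes, a pseudocount of 10 CPM left 150 and 139, the filter of 20 UMIs and 5% of cells gave 652 and 588 (more genes tested), and thinning to 1000 UMIs left 71 and 86 (fewer genes measured). With a mean over clonotypes 460 genes were lower, and without clonotypes 1, 2 and 5 there were 574 lower. Leaving out 1 clonotype at a time gave 283 to 334 higher and 262 to 370 lower genes. The values that changed sign follow as log2 ratios, and the cause was not tested. Retnlg, a neutrophil gene, turned to 0.10 without clusters 11 and 12 and to 0.042 in cluster 8 alone. In Cd4-free cells Il1rl1 was at 0.23, Il2ra at 0.24, Tnfrsf4 at 0.78, Cd40lg at 0.31 and the median of the regulatory and helper list at 0.38; with cells holding an S1pr1 UMI also left out these were 0.21, 0.21, 0.75, 0.30 and 0.36. Xcl1 was at 0.15 with a mean over clonotypes, at 0.44 after thinning and at 0.15 without clonotypes 1, 2 and 5. After thinning Klra5 was at 0.15, Cd40lg at 0.012 and the median of the circulation list at 0.20, over 3 members against 8. Against clonotypes of 1 cell Hbb-bs was at 1.37 and Mki67 at 0.42. Without clonotypes 1, 2 and 5 Sipa1l2 was at -0.0059, Saa3 at -0.46, Gzmd at -0.13 and Apoe at -0.34. The other named genes past the fold kept their sign under the settings run. Depth limits genes with few UMIs, such as Itgae with 1 in expanded cells, and 6 clonotypes of 3 receptor families limit every value.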
